A study of Mus musculus with 4 samples.

Results

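Heparan sulfate proteoglycans are proteins at the cell surface and in the matrix around cells that carry long chains of sulfated sugar. The genes described here encode the core proteins, the enzymes that build and sulfate the chains, and the enzymes that take sulfate off again outside the cell. They were chosen by gene symbol alone, as the glypicans, the syndecans, perlecan (Hspg2), agrin (Agrn), the chain polymerases, the sulfotransferases, the epimerase and the endosulfatases, and number 35 of the 27293 genes in the table of all 4 libraries. All 35 are annotated as protein coding.

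Chains start on a core protein, are lengthened by polymerases in the Golgi, and are then deacetylated, epimerized and sulfated in stretches, so that each cell type displays its own sulfation pattern. Fibroblast growth factors, Wnt proteins, hedgehog proteins and bone morphogenetic proteins bind these stretches, and the pattern sets how well a cell receives them. In the embryonic forebrain, mice without heparan sulfate polymerase in neural progenitors are known to lose midline structures and to develop a small cortex.

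The study asked how loss of STING, an innate immune adaptor protein, changes gene expression in the embryonic cerebral cortex. Total RNA came from telencephalic tissue of C57BL/6 mice at embryonic day 13 (E13), from 2 ug of which each library was made. There were 2 libraries of wild type (WT) tissue and 2 of the genotype STINGf/f;Nestin-Cre (cKO), in which both STING alleles are floxed and Cre recombinase is made from the Nestin promoter, active in neural progenitors. Cells outside that lineage, such as those of vessels, meninges and blood, are not targeted by this driver and are part of the tissue. The titles of WT 1 and WT 2 differ in form, and the abbreviation in that of WT 2 is unexplained, so its Cre status is unknown. Nothing states that the libraries of a group came from separate embryos or litters, and p-values then measure the spread between these libraries. That spread may be technical in cKO. WT 1 and WT 2 differ in Y-linked genes, as given below, so they are not repeats of the same RNA. Counts on genes totalled 17209654 and 18533391 for WT 1 and WT 2, and 18237989 and 18091688 for cKO 1 and cKO 2.

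The STING gene, listed as Tmem173, was counted at 20 reads in WT 1 and 19 in WT 2, and at 18 in cKO 1 and 22 in cKO 2. A count over a whole gene takes in exons outside the floxed part and cells without Cre, so it does not check the genotype, which is taken from the labels.

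One library stood apart in its tissue markers. In WT 1 the summed level of 10 choroid plexus genes, in counts per 1000000 after TMM normalization (CPM), was 68.8, and the other libraries had 16.8 (WT 2), 13.9 (cKO 1) and 15.0 (cKO 2). Their most abundant gene was Otx2, all 10 were highest in WT 1, and the defining markers Folr1 and Kcnj13 were at 0 in WT 2 and in cKO 2, respectively, while Ttr and Clic6 were not analysed here. The 8 genes of the cortical hem and roof plate, led by Rspo3, summed to 65.6 and 17.3 CPM in WT 1 and WT 2 and 22.2 and 24.6 CPM in cKO 1 and cKO 2, and all 8 were highest in WT 1. The 12 genes of meninges and mesenchyme, led by Col3a1, summed to 303 and 62.3 CPM in WT 1 and WT 2 and 82.6 and 46.6 CPM in cKO 1 and cKO 2, with 10 of the 12 highest in WT 1 and none at 0 in any library. WT 1 thus held 4.09, 3.80 and 4.86 times the WT 2 level of these lists. Marker genes called lower in cKO, by the rule given below, were Aqp1, Htr2c and Otx2 of the 4 choroid plexus genes tested, Col1a1 and Col1a2 of the 9 meningeal genes tested, and Acta2 of the 6 mural cell genes. Without WT 1, 0 marker genes were called lower, while the hem gene Rspo2 was called higher, with a log2 fold change of 1.52 and an unadjusted p of 0.0433. Endothelial genes summed to 213 CPM in WT 1 and 142 to 165 CPM in the other libraries, and blood genes to 1082 CPM in WT 1 and 474 to 724 CPM in the others.

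Markers of the labelled tissue were present and closer together. The 10 genes of telencephalon and cortical progenitors summed to between 3078 and 3283 CPM, the 5 genes of intermediate progenitors to between 717 and 791, and the 8 of cortical neurons to between 5397 and 6394. The 10 ventral telencephalon genes, led by Dlx1, summed to 726 CPM in cKO 1 and to 1062 to 1099 in the other 3 libraries. WT 2 also stood apart, with 0 counts for 4 Y-linked genes (Uty, Kdm5d, Ddx3y and Eif2s3y) that summed to 157 CPM in WT 1 and to 164 and 103 CPM in the cKO libraries, and all 4 were called higher without WT 1. Male tissue was thus detected in every library but WT 2. The libraries are therefore given one by one below, and results for the heparan sulfate genes that rest on WT 1 are given without it as well. Medians of the other gene lists are from the fit with all libraries. In whole tissue, fewer cells of a type and less RNA per cell cannot be told apart.

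Of the 35 heparan sulfate genes, 33 passed the filter on low counts and were tested together with all other genes, 16145 in total, in edgeR's quasi-likelihood fit. Sulf1 and Hs3st3a1 were lower in cKO at the study's thresholds, and 0 were higher. These thresholds ask for 2-fold or more and a p no higher than 0.05, read here as an unadjusted p. Over all genes tested, 0.669% were called lower and 0.142% higher by the same rule, so 2 of 33 members is a larger share than the background but rests on 2 genes. At a Benjamini-Hochberg adjusted p under 0.05 in edgeR's fit there were 0 members, against 0% of all genes, while 2 members had an unadjusted p under 0.05, as did 199 of all genes tested (1.23%). DESeq2 also gave 0 members by adjusted p, and 1 (Sulf1) by unadjusted p under 0.05. The smallest adjusted p of a member was 0.9999. Both cKO libraries were lower than either WT library in 5 members, where 10.8% of all genes had that order, and higher in 1, where 11.0% did.

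With all libraries, most fitted differences were small, and more were negative than positive. The log2 fold change was below 0 in 25 members (75.8%) and above 0 in 8, where 52.1% of all genes tested were below 0. Without WT 1 it was below 0 in 22 of 33 members (66.7%) and in 49.4% of all genes. The median log2 fold change, cKO over WT, was -0.05 over the 33 members tested and -0.01 over all genes tested. With 1 library left out the members' median was -0.08 (without WT 1), 0.04 (without WT 2), -0.05 (without cKO 1) and -0.09 (without cKO 2). The excess of negative values was therefore absent without WT 2, where the median of all genes was 0.01. In 30 of the 33 (90.9%) the fitted log2 fold change was smaller than 0.5 in either direction, as in 90.6% of all genes, and the exceptions were Sulf1, Hs3st3a1 and Gpc3. Without WT 1, 0 members were called in either direction, where 0.280% of genes were called lower and 0.340% higher. The lowest library was cKO 1 for 14 of the 33 members (42.4%, against 27.4% of all genes), WT 1 for 8 (24.2%, against 21.1%), cKO 2 for 6 (18.2%, against 33.4%) and WT 2 for 5 (15.2%, against 18.2%). The highest was WT 1 for 11 (33.3%, against 25.1%), WT 2 for 10 (30.3%, against 17.6%), cKO 2 for 10 (30.3%, against 33.6%) and cKO 1 for 2 (6.06%, against 23.7%). The cKO libraries thus differed from each other in this as well.

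**Figure D1:**
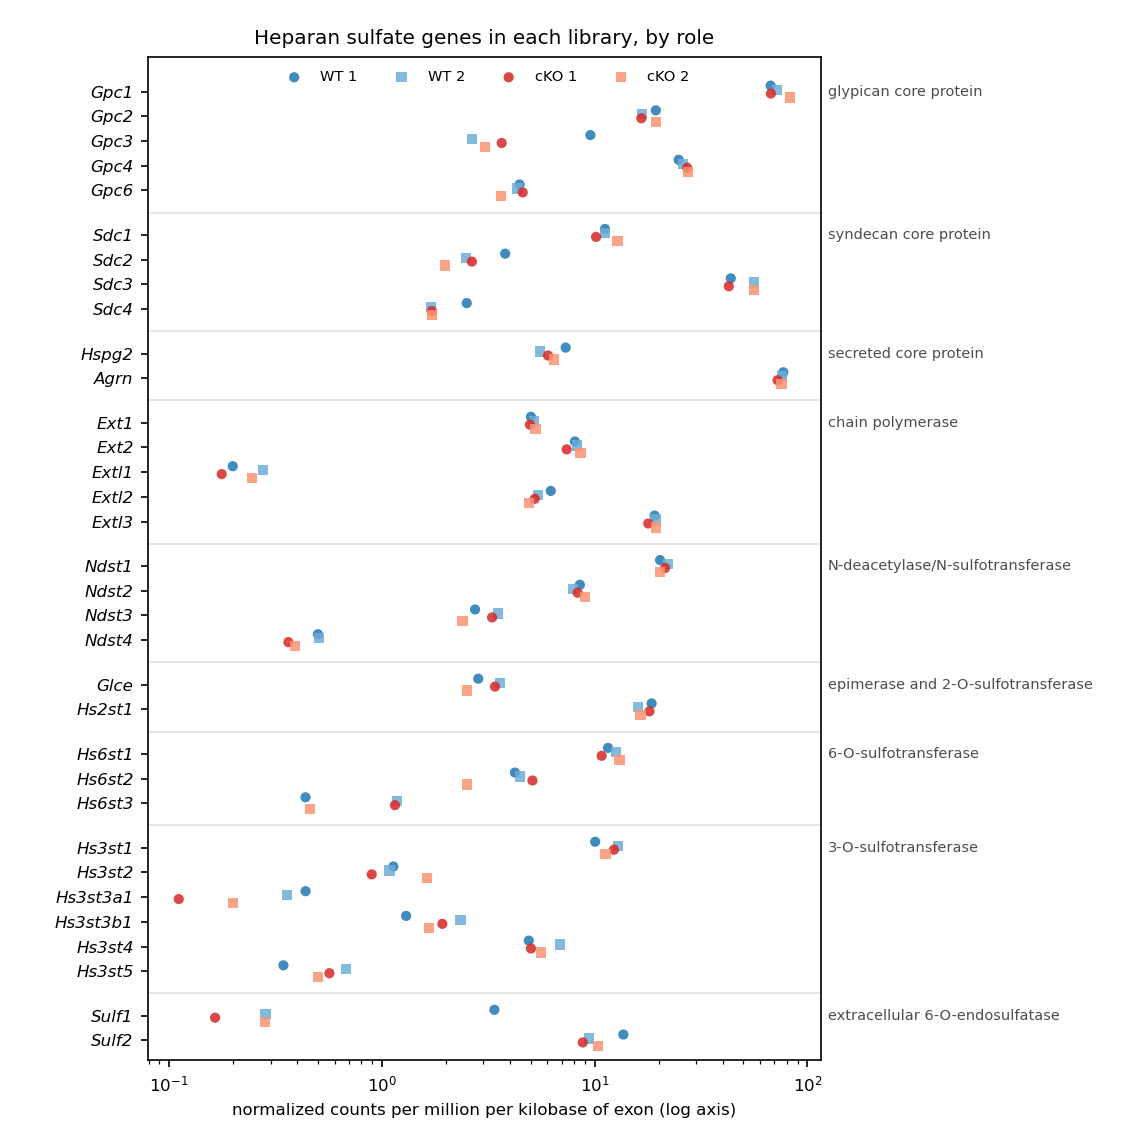
Normalized CPM per kilobase of exon (log axis) of the 33 heparan sulfate genes tested, grouped by role, with 1 point for each library (blue for WT, red for cKO, circles for replicate 1 and squares for replicate 2). Agrn and Gpc1 lie furthest right, at means of 75.3 and 72.4, and the points of most genes lie close together, while WT 1 stands to the right of the other 3 libraries for Sulf1 and Gpc3.

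The glypicans are core proteins held on the outer face of the membrane by a lipid anchor. Gpc1, whose loss in mice is known to give a smaller brain, was the most abundant of the 6, with a mean of 72.4 CPM per kilobase of exon (CPM per kb) or 57.5% of the summed glypican level. It stood at 347 and 371 CPM in WT 1 and WT 2 and 348 and 429 CPM in cKO 1 and cKO 2. The groups overlapped, since cKO 1 lay between the WT libraries, and cKO 2 was the highest. Its log2 fold change was 0.11 (standard error 0.17, unadjusted p of 0.513). An exon of Ankmy1 on the other strand covers 18.9% of the Gpc1 exon bases, and whether counting was by strand is unknown, but Ankmy1 itself had only 8 to 16 counts.

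Gpc4, a glypican of neural progenitors, was next in level per kb, at 26.4 CPM per kb. Of the 33 members tested it was the only one whose cKO libraries both lay above both WT libraries. WT 1 had 65.9 CPM and WT 2 69.1, cKO 1 72.2 and cKO 2 72.8, with means of 67.5 ± 2.28 for WT and 72.5 ± 0.393 for cKO (SD, n = 2 each). The distance between the groups was small, with a log2 fold change of 0.10, a standard error of 0.15 and an unadjusted p of 0.499.

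Gpc3, which binds hedgehog proteins and is mutated in a human overgrowth syndrome, lies 107 kilobases from Gpc4 on the X chromosome, on the same strand, and behaved differently. It stood at 25.7 and 7.11 CPM in WT 1 and WT 2 and 9.84 and 8.23 CPM in cKO 1 and cKO 2. WT 1 was 3.61 times as high as WT 2, and WT 2 was the lowest of the 4 libraries, so the groups overlapped. The log2 fold change of -0.86 (standard error 0.51, unadjusted p of 0.128) became 0.34 without WT 1 and -1.50 without WT 2, and only the fit without WT 2 passed the study's thresholds (adjusted p = 0.0108 in edgeR's fit, where 1 WT library stands for its group). The library that was high in Gpc3 is the one that was high in the choroid plexus, hem and meninges lists, and their part in the value was not tested.

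Gpc2 (cerebroglycan), a glypican of young neurons, stood at 18.0 CPM per kb, and its log2 fold change was -0.01. Its count is uncertain, because 49.7% of the 50-base windows of its transcripts also occur in Gm43720, a gene of the same strand with 0 or 1 counts in each library. Gpc6 stood at 4.25 CPM per kb with a log2 fold change of -0.09. Gpc5, its neighbour at a distance of 400 kilobases on chromosome 14, was counted 4 times in WT 1 and 6 times in each other library and did not pass the filter.

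The syndecans span the membrane. Sdc3 (N-syndecan), the syndecan of nerve cells, made up 75.7% of the summed syndecan level per kb. Its levels of 262 CPM in WT 1 and 336 in WT 2 were matched by 256 in cKO 1 and 337 in cKO 2. Replicate 1 was the lower and replicate 2 the higher in both groups, and the log2 fold change was -0.01 (standard error 0.20). Sdc1, an epithelial and progenitor syndecan, had 11.3 CPM per kb and a log2 fold change of 0.03. Sdc2 and Sdc4, which is found at focal adhesions, were the least abundant, at 2.73 and 1.91 CPM per kb. WT 1 was the highest library for both, with 233 counts of Sdc2 against 125 to 171 and 111 counts of Sdc4 against 78 to 80, and their log2 fold changes of -0.44 and -0.29 were -0.10 and 0.01 without WT 1.

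Agrn, which encodes agrin, the organizer of neuromuscular synapses and a basement membrane component, was the most abundant of all 35 genes per kb by the mean of the 4 libraries, although Gpc1 stood above it in cKO 2, at 83.1 against 75.7 CPM per kb. Its level was 716 and 706 CPM in WT 1 and WT 2 and 673 and 702 CPM in cKO 1 and cKO 2. The groups did not overlap, but WT 2 and cKO 2 were close, and with upper quartile factors in place of TMM they overlapped. Its log2 fold change was -0.05 (standard error 0.15). Hspg2, or perlecan, the large heparan sulfate proteoglycan of basement membranes, had 6.33 CPM per kb. It was highest in WT 1, at 105 CPM, and lowest in WT 2, at 79.5, with 86.4 in cKO 1 and 91.8 in cKO 2 between them.

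The chain is begun and lengthened by the exostosin family. Extl3, which adds the sugar that commits a chain to heparan sulfate, was the most abundant polymerase, with 18.9 CPM per kb or 50.1% of the summed level of the 5. It stood at 116 and 117 CPM in WT 1 and WT 2 and at 108 and 117 in cKO 1 and cKO 2. The values overlapped and cKO 1 was the lowest. Ext1 and Ext2 form the copolymerase that lengthens the chain, and had 5.12 and 8.09 CPM per kb with log2 fold changes of 0.00 and -0.04. Ext2 (chr2:93661028-93822568, minus strand) overlaps the span of Alx4, on the plus strand, a gene with a log2 fold change of -1.69. No annotated exon of the 2 genes overlaps, and Ext2, whose WT libraries held 1029 and 1120 reads and whose cKO libraries held 991 and 1125, did not follow Alx4.

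Extl2, which can end a chain, was the member of this role whose groups did not overlap, with 21.5 and 18.7 CPM in WT 1 and WT 2 and 18.0 and 17.0 CPM in cKO 1 and cKO 2. The step from WT 2 to cKO 1 was smaller than that between the WT libraries, and the log2 fold change was -0.20 (standard error 0.19, unadjusted p of 0.335). Extl1 was close to the filter, with between 14 and 22 counts.

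The N-deacetylase/N-sulfotransferases make the first change to the finished chain, replacing acetyl groups with sulfate, and later steps depend on them. Ndst1, the main enzyme of most tissues, held 63.9% of the summed level of the 4. It stood at 168 and 183 CPM in WT 1 and WT 2 and 178 and 169 CPM in cKO 1 and cKO 2, so both cKO libraries lay between those of WT. Its log2 fold change was -0.02 (standard error 0.14). Ndst2, best known from mast cells, had 8.44 CPM per kb and a log2 fold change of 0.08, and Ndst3, found mainly in brain, had 2.99 CPM per kb and -0.14.

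Ndst4 was the least abundant of the 4, at 0.440 CPM per kb, and its groups did not overlap. It had 5.87 and 5.92 CPM in WT 1 and WT 2 and 4.26 and 4.59 CPM in cKO 1 and cKO 2. Libraries of the same label lay close together, at means of 5.89 ± 0.0377 CPM for WT and 4.43 ± 0.231 for cKO (SD, n = 2 each). A log2 fold change of -0.41 was fitted (standard error 0.28, unadjusted p of 0.185), and with each library left out in turn it stayed between -0.45 and -0.36.

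The epimerase Glce, which turns glucuronic into iduronic acid, and Hs2st1, which sulfates that iduronic acid, act as a pair. Hs2st1 held 84.8% of their summed level, at 17.3 CPM per kb. Its values were 152 and 131 CPM in WT 1 and WT 2 and 149 and 135 CPM in cKO 1 and cKO 2. Both cKO libraries lay between the WT libraries, and the log2 fold change was 0.00 (standard error 0.15). Glce had 3.09 CPM per kb and a log2 fold change of -0.12.

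Sulfate at the 6-O position is read by fibroblast growth factors and their receptors. Hs6st1, the most abundant of the 3 enzymes with 71.1% of their summed level, had 64.1 and 69.7 CPM in WT 1 and WT 2 and 59.8 and 72.5 CPM in cKO 1 and cKO 2. Here cKO held both the lowest and the highest library, and the log2 fold change was -0.02 (standard error 0.16). Hs6st2, on the X chromosome, differed within a label: it stood at 33.0 and 34.9 CPM in WT 1 and WT 2 and 39.8 and 19.6 CPM in cKO 1 and cKO 2. The cKO libraries were 2.03-fold apart and lay on either side of WT. The log2 fold change of -0.19 (standard error 0.30) was 0.25 without cKO 2 and -0.79 without cKO 1. Hs6st3 reads numbered 13 (WT 1), 37 (WT 2), 36 (cKO 1) and 14 (cKO 2). WT 1 and cKO 2 were low and the other libraries high, 2.69-fold apart within WT and 2.51-fold within cKO, and the log2 fold change was -0.01 (standard error 0.62).

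The 3-O-sulfotransferases add the rarest sulfate group, the last in the order of synthesis. Hs3st1, known for making the antithrombin-binding site, was the most abundant of the 7, with 11.6 CPM per kb or 55.3% of the summed level. It had 22.4 and 28.7 CPM in WT 1 and WT 2 and 27.5 and 25.1 CPM in cKO 1 and cKO 2, with both cKO libraries between those of WT. Hs3st4 and Hs3st2, which are expressed in neurons, had 5.60 and 1.19 CPM per kb and log2 fold changes of -0.15 and 0.19. Hs3st5 had between 26 counts (WT 1) and 54 (WT 2). Hs3st6 had 1 count in WT 2, 1 in cKO 2 and 0 in the others, and it was not tested. A 0 leaves room for up to 3 reads by counting error alone, or 0.173 CPM in WT 1 and 0.164 in cKO 1.

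Hs3st3a1 was called lower in cKO. The WT libraries held 30 and 26 reads and the cKO libraries 8 and 14, that is 1.73 and 1.41 CPM against 0.437 and 0.783. Both WT libraries lay above both cKO libraries, with means of 1.57 ± 0.222 CPM for WT and 0.610 ± 0.245 for cKO (SD, n = 2 each). Its log2 fold change was -1.35 (standard error 0.50, unadjusted p of 0.0271), and the adjusted p = 0.9999 in edgeR's fit over all genes. Unlike that of Sulf1 the value did not rest on WT 1: it was -1.20 without WT 1, -1.48 without WT 2, -0.99 without cKO 1 and -1.81 without cKO 2. The call was lost without WT 1, WT 2 or cKO 1 and with DESeq2 (log2 fold change -1.36), and at 8 to 30 counts the gene is near the lower end of what could be tested.

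The count of Hs3st3a1 is also uncertain, because 42.8% of the 50-base windows of its transcripts occur in another annotated gene. F930015N05Rik, on the other strand, shares 32.9% of its exon bases and had 1 count in WT 2 and 0 in the other libraries. Hs3st3b1, the close relative that makes the same kind of site, shares 416 windows with it, 8.56% of those of Hs3st3b1. The 2 relatives lie 513 kilobases apart on chromosome 11. Hs3st3b1 stood at 6.38 and 11.5 CPM in WT 1 and WT 2 and 9.45 and 8.17 CPM in cKO 1 and cKO 2. WT 1 was the lowest and WT 2 the highest, with both cKO libraries between them, and the log2 fold change was -0.02 (standard error 0.32). Per kb, Hs3st3b1 had 1.81 CPM and Hs3st3a1 0.277.

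Outside the cell, Sulf1 and Sulf2 remove 6-O-sulfate from finished chains and so change which growth factors they hold. Sulf2 was the more abundant, with 91.1% of their summed level. It stood at 80.1 and 55.3 CPM in WT 1 and WT 2 and 51.6 and 60.8 CPM in cKO 1 and cKO 2. WT 1 was the highest library and WT 2 lay between the cKO libraries. The log2 fold change of -0.27 (standard error 0.21, unadjusted p of 0.234) was 0.02 without WT 1.

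Sulf1 was called lower in cKO, and the call rested on WT 1. The level was 38.2 and 3.20 CPM in WT 1 and WT 2 and 1.86 and 3.19 CPM in cKO 1 and cKO 2. WT 1 held 11.9 times the level of WT 2, and WT 2 and cKO 2, at 59 and 57 counts, were about equal, so the groups barely failed to overlap and did overlap with upper quartile factors. Means were 20.7 ± 24.7 CPM for WT and 2.52 ± 0.942 for cKO (SD, n = 2 each). The log2 fold change of -3.03 (standard error 0.95, unadjusted p of 0.0126, adjusted p = 0.9999 in edgeR's fit) was -0.34 without WT 1, with an unadjusted p of 0.519, and lay between -3.91 and -2.69 when any other library was left out. With the replicate number as a term in the fit (a replicate block) it was -2.28, with an unadjusted p of 0.000154 and adjusted p = 0.159 in edgeR's fit, although nothing ties these numbers to a litter or batch. Together the sulfatases had 17.0 CPM per kb in WT 1 and 9.71, 8.96 and 10.6 in WT 2, cKO 1 and cKO 2. The lists of choroid plexus, hem and meninges genes were high in the same library, by factors of 3.80 to 4.86 over WT 2, and their part in the value of Sulf1 was not tested.

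**Figure D2:**
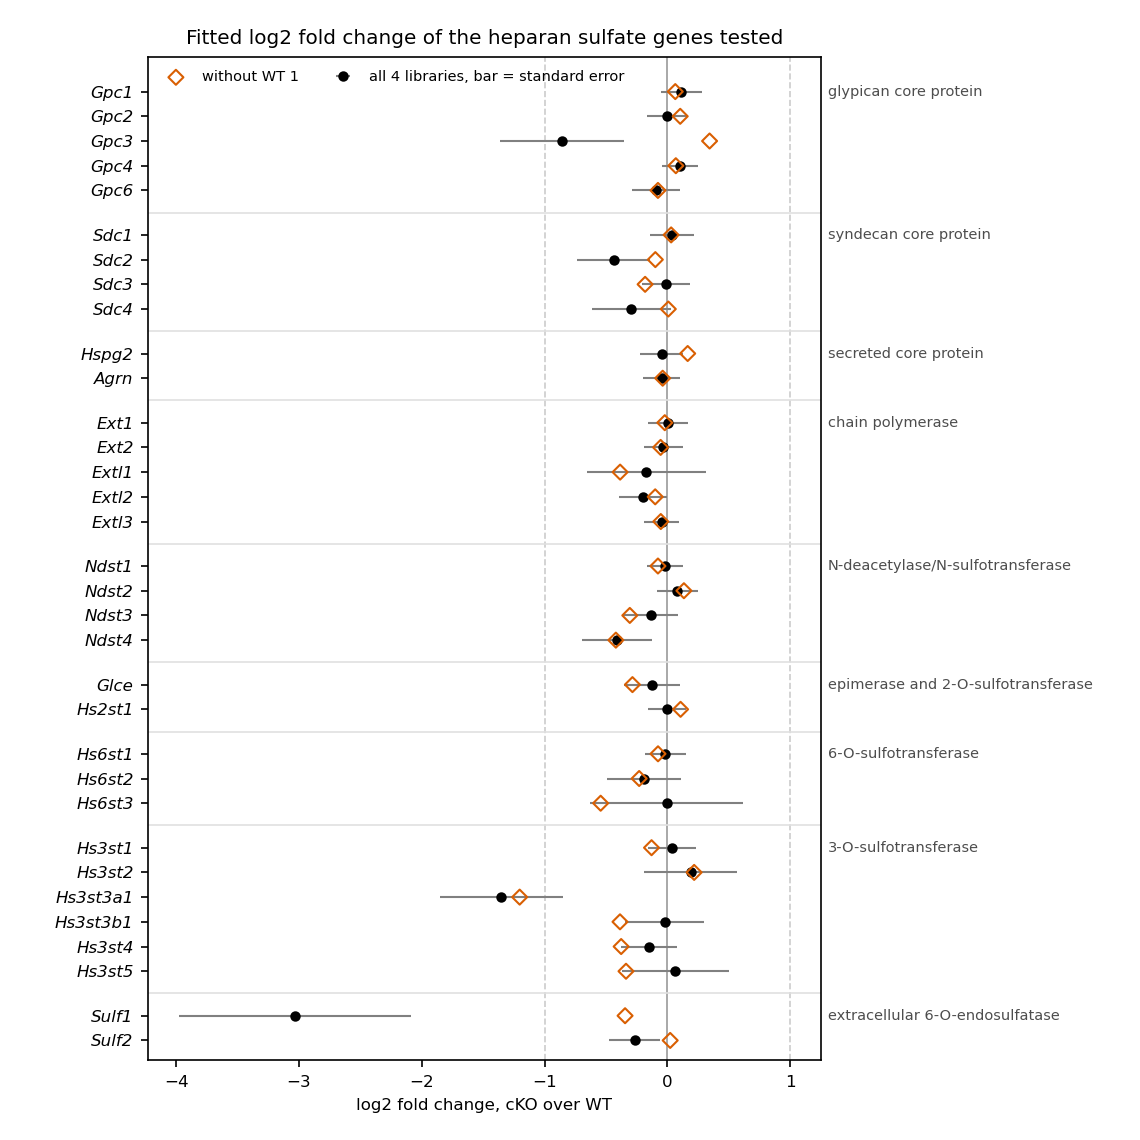
Fitted log2 fold change, cKO over WT, of the 33 heparan sulfate genes tested (black points, bars give the standard error), and the same fit without WT 1 (open diamonds). Dashed lines mark a fold change of 2. Sulf1 moves from -3.03 to -0.34 and Gpc3 from -0.86 to 0.34 without WT 1, while Hs3st3a1 lies at -1.35 and -1.20.

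**Figure D3:**
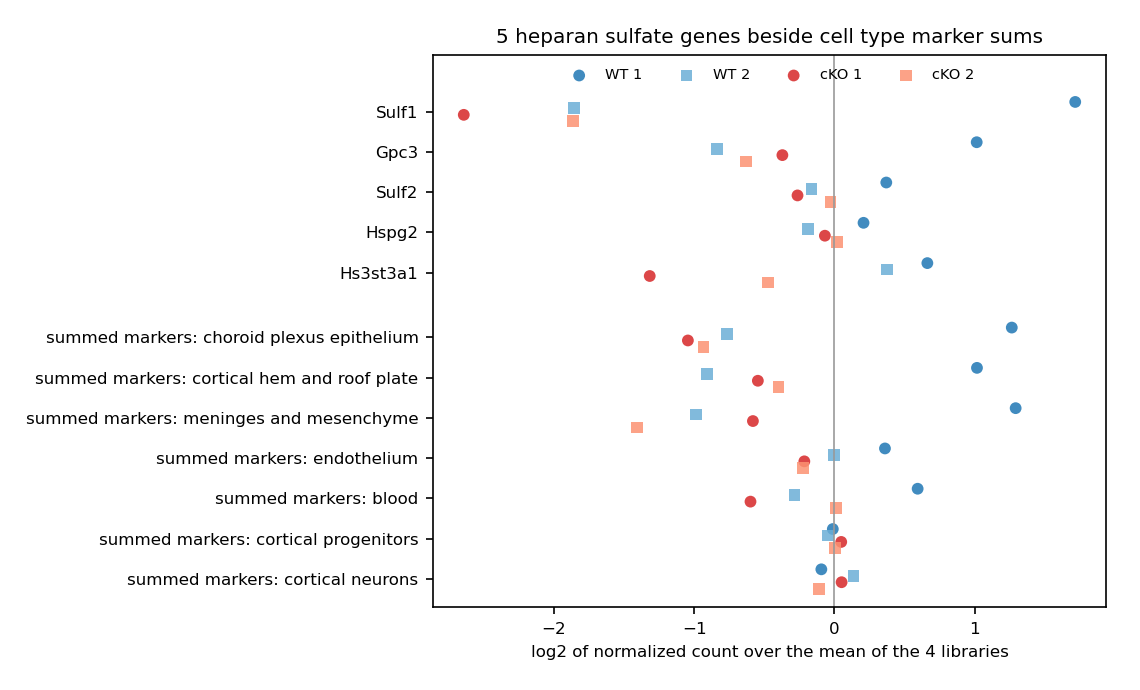
The log2 of the normalized count in each library over the mean of the 4 libraries, for 5 heparan sulfate genes and for the summed counts of 7 marker lists. WT 1 is the library furthest right for all 5 genes shown, and it was the highest library for 11 of the 33 members tested. It is also furthest right for the choroid plexus, hem, meninges, endothelium and blood lists. The 4 libraries lie close together for cortical progenitors and cortical neurons.

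Genes around this pathway showed no call, where 0.669% of all genes tested were called lower and 0.142% higher. At those shares a list this short would usually hold no call, so the counts say little about the lists. The median log2 fold change of all genes tested was -0.01. Of the 7 genes that build the linkage sugars between core protein and chain, 0 were called in either direction, with a median log2 fold change of 0.04, and B3gat3, the last enzyme of that step, was the most abundant at 69.2 and 84.5 CPM in WT and 78.9 and 109 in cKO. Of 11 genes for sulfate donor and sugar nucleotide supply 9 were tested and 0 called (median -0.13), and Papss1, which makes the sulfate donor, led with 127 and 135 CPM in WT and 123 and 134 in cKO. Of 10 genes of heparan sulfate breakdown 8 were tested and 0 called (median -0.09), and Ids, the lysosomal enzyme that removes 2-O-sulfate, stood at 115 and 98.5 CPM in WT and 98.2 and 70.8 in cKO. Heparanase was hardly counted, with 3 to 11 counts of Hpse, a gene named after its values were seen.

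The other pathway lists and the comparison list also had no call, where 0.669% of all genes tested were called lower and 0.142% higher. These lists are short as well, and would usually hold no call at those shares. The 8 other core proteins that can carry heparan sulfate had 0 calls and a median of -0.27, and Nrxn2, a presynaptic neurexin, was the most abundant, with 195 and 224 CPM in WT and 158 and 238 in cKO. The 5 genes that release glypicans from the membrane had 0 calls among the 4 tested and a median of -0.06, led by Gde1 at 66.1 and 66.0 CPM in WT and 64.2 and 69.8 in cKO. For comparison, 15 enzymes of the related chondroitin and dermatan sulfate chains had 0 calls and a median of -0.02, and Chpf, a chondroitin polymerase, was their most abundant gene, at 50.1 and 54.1 CPM in WT and 45.9 and 61.2 in cKO.

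Apart from the endosulfatases, levels by role were near each other in the 4 libraries. Summed per kb, the glypicans had 126 and 122 CPM in WT 1 and WT 2 and 120 and 137 CPM in cKO 1 and cKO 2. The N-deacetylase/N-sulfotransferases ran from 32.1 to 34.0 CPM per kb and the polymerases from 35.6 to 38.7. The syndecans varied more, from 57.2 CPM per kb in cKO 1 to 72.8 in cKO 2, and the 3-O-sulfotransferases from 18.2 in WT 1 to 24.3 in WT 2, and in both roles the WT libraries were further apart than the group means. The cKO libraries were far apart for the syndecans and level for the 3-O-sulfotransferases, at 20.9 CPM per kb each.

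Most of the start regions at hand are rich in CpG. RefSeq promoters (GRCm38.p6, 250 bases before to 50 after the start) were at hand for 26 of the 35 genes, with 31 start sites. Those of Gpc1, Gpc6, Sdc2, Ext1, Extl3, Ndst1, Ndst4, Hs3st6 and Sulf1 are missing. The median promoter held 23 CpG dinucleotides, against 7 over all 32851 promoters, and had 66.7% G and C, against 52.7%. Of the 31, 28 were above that median of 7, and the others were those of Ndst3, with 3 and 1 CpG, and 1 of Extl2, with 6. The GC box GGGCGG, on either strand, was found in 22 of the 31, and in 35.7% of all promoters. The CCAAT box was found in 13 of the 31 and in 37.4% of all, and TATAAA in 3 of the 31 and in 13.6% of all. A match is a run of letters, not a bound site.

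The promoters of 2 pairs of relatives are shown, because within each pair the neighbours on 1 chromosome had different values across the libraries. In the first pair, Hs3st3a1 was called and Hs3st3b1 was not. In the other, Gpc3 was high in WT 1 and Gpc4 was level. Capitals mark GC boxes and CCAAT boxes. On the other strand the GC box reads CCGCCC and the CCAAT box reads ATTGG. Each sequence is written 5′ to 3′ on the strand of its gene. Hs3st3a1 lies on the plus strand, with its promoter at chr11:64435082-64435381, and Hs3st3b1 on the minus strand, with its promoter at chr11:63922235-63922534. Both promoters hold 23 CpG. Hs3st3a1 has 1 GC box and 1 CCAAT box, which overlap, and Hs3st3b1 has 2 of each.
Hs3st3a1: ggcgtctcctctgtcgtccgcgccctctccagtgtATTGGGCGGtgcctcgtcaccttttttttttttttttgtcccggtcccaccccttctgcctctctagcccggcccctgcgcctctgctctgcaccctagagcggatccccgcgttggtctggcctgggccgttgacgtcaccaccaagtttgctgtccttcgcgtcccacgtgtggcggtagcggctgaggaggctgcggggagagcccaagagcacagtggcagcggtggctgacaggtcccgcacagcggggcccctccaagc
Hs3st3b1: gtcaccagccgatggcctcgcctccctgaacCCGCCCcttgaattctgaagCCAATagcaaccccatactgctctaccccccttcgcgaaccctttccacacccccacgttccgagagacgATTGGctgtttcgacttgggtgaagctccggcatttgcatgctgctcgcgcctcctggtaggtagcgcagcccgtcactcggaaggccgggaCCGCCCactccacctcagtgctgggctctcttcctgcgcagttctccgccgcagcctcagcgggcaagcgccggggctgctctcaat

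The glypican pair is on the minus strand, with Gpc3 at chrX:52613925-52614224 and Gpc4 at chrX:52164874-52165173. The Gpc3 promoter holds 4 GC boxes, 1 CCAAT box and 30 CpG, and that of Gpc4 holds 1 GC box, 0 CCAAT boxes and 22 CpG. No TATAAA was found in any of the 4 promoters.
Gpc3: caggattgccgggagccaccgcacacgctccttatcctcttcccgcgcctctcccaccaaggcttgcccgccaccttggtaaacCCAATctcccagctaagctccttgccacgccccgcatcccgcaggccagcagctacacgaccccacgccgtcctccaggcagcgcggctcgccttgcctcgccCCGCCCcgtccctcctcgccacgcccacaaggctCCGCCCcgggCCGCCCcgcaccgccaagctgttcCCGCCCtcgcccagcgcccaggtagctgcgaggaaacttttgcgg
Gpc4: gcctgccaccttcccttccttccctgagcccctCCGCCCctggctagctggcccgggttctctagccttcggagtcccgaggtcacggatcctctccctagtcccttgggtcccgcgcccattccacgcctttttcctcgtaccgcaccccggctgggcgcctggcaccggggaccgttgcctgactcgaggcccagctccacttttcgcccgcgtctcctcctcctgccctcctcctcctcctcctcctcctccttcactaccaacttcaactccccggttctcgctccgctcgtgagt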

How the data were processed

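The authors extracted total RNA and deposited raw counts of reads per gene for 4 libraries. The submitters' processing notes name Bowtie2 2.2.3, TopHat2 2.0.12 and HTSeq 0.6.0 and the build mm9, but 97.2% of the 27232 genes that GENCODE M21 also lists lie within 1 base of it at an end, so positions were read as GRCm38. Strand setting and removal of duplicate reads are not given in the sources used here. The table has 27304 rows, of which 11 (0.0403%) were blank and were left out. The counts of the 21342 genes that are also in a table of cKO 1 and WT 1 were identical. The authors' deposited CPM, their signal column of mean normalized counts, their fold changes (a ratio) and log2 fold changes, and their deposited p-values hold their own comparisons or scaling and were not used.

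Counts were fitted in R 4.3.3 by the quasi-likelihood method of edgeR 4.0.16, with TMM factors, the filterByExpr filter and group as the only term, on all genes that passed the filter, and p-values were adjusted over all of them by the Benjamini-Hochberg method. CPM are counts per 1000000 of the TMM-scaled library, and CPM per kilobase divide by the union of a gene's exons in GENCODE M21. The procedure was tested on simulated data, where it found most of the 4-fold changes put in and missed many of the 2-fold ones. It called more unchanged genes than were called in the real data. The simulation thus did not match the real data, and its rates cannot be carried over. A call asks for a fitted change of at least 2-fold, so true 2-fold changes are often missed by construction. Lists with 0 calls may therefore hold 2-fold differences. No gene had an adjusted p under 0.05 in edgeR's main fit, so single calls are weak evidence. Windows of 50 bases were compared with all GENCODE M21 transcripts on both strands. The alternatives were RLE and upper quartile factors, library totals alone, other filters, DESeq2 1.42.0, a stricter p, the replicate number as a term, and each library left out in turn, where the group left with 1 library is assumed to vary like the other.

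The members, gene lists and tests were chosen with earlier results of these data known. All members are named. Those given in every library by rule are members that were called, the most abundant of each role per kilobase, members whose libraries of 1 label were at least 2-fold apart with 10 or more counts in 1 of them, and, among members whose groups did not overlap, up to 3 a direction by size of log2 fold change. Values in every library of Ext2, Extl2, Hspg2 and Hs3st3b1 were added after they were seen, as were genes that share exons with a member, Alx4 and Hpse. From the other lists, called genes and, for most lists, the most abundant gene are named.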

Additional observations from a re-analysis of the deposited data

How the results depend on the processing

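Normalization changed no count of called members: Sulf1 and Hs3st3a1 were called with RLE or upper quartile factors and with library totals alone, and 2 members were called with no filter beyond 1 count. The number was 1 (Sulf1) under the filter of 10 counts per library, which removed Hs3st3a1, and 1 (Sulf1) with DESeq2, where the cause was not tested. At an unadjusted p of at most 0.01 it was 0, by construction a subset. With a library left out it ran from 0 without WT 1 to 2, and Gpc3 took the place of Hs3st3a1 without WT 2. At an adjusted p under 0.05 there were 0 members, apart from 1 with no filter beyond 1 count (Sulf1, adjusted p = 4.4e-18 in edgeR's fit, against adjusted p = 0.9999 in the main fit) and, with a library left out, from 0 to 2. Those 2 were Sulf1 and Gpc3 without WT 2, where WT 1 alone stood for WT and its difference from WT 2 no longer counted as spread. Members whose groups did not overlap numbered 4 to 7 with all libraries, or 12.1% to 21.2%, where 21.2% to 22.1% of all genes did not overlap. With a library left out, 17 to 21 members did not (51.5% to 63.6%), as did 48.4% to 75.1% of all genes. The median log2 fold change of the members was between -0.06 and -0.03 with all libraries and between -0.09 and 0.04 with 1 left out.

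Over all genes, 131 passed the thresholds. The number was 405 with no filter beyond 1 count and 72 under the filter of 10 counts per library, where more and fewer genes were tested, 65 with DESeq2, 14 at an unadjusted p of at most 0.01, and from 104 to 531 with a library left out. The labels share replicate numbers, but no source ties them to a litter or batch, and across genes the deviations of same-numbered libraries correlated with a coefficient of 0.104 in 2 pairs. The replicate block gave 208 genes and 2 members called.

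Of 362 values of single members under these alternatives, 309 kept their sign and their side of the thresholds, whatever their size, 5 lost a call, 1 gained one and 47 changed sign. With all libraries the sign changed in 9, all near 0: Ext1 at -0.01 with library totals alone, Hs3st3b1 and Hs6st3 at 0.03 and 0.01 with the replicate block, and Hs6st3 once and Hs2st1 in 5 fits at 0.00. With a library left out, the sign changed in 38 values of 25 members, none of them called. The ranges over the left-out libraries were Gpc1 -0.03 to 0.26, Gpc2 -0.11 to 0.10, Gpc3 -1.50 to 0.34, Gpc6 -0.27 to 0.08, Sdc1 -0.13 to 0.19, Sdc3 -0.21 to 0.19, Sdc4 -0.53 to 0.01, Hspg2 -0.22 to 0.16. They were Ext1 -0.03 to 0.05, Ext2 -0.13 to 0.07, Extl1 -0.41 to 0.09, Extl3 -0.09 to 0.01, Ndst1 -0.08 to 0.06, Ndst3 -0.38 to 0.09, Glce -0.35 to 0.09, Hs2st1 -0.09 to 0.11. For the rest they were Hs6st1 -0.15 to 0.12, Hs6st2 -0.79 to 0.25, Hs6st3 -0.81 to 0.89, Hs3st1 -0.13 to 0.24, Hs3st2 -0.29 to 0.56, Hs3st3b1 -0.39 to 0.48, Hs3st4 -0.38 to 0.12, Hs3st5 -0.34 to 0.64, Sulf2 -0.50 to 0.02.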
